A study of Mus musculus with 77 samples.

Results

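The aminoacyl-tRNA synthetases, the enzymes that load each tRNA with its amino acid, were followed in mouse liver by ribosome profiling. Members were chosen by gene symbol alone, a single amino acid letter followed by ars, with an optional 1 or 2, together with Farsa, Farsb and Eprs. This found 37 of the 25266 genes listed, and all 37 passed the filter on low counts, which kept 10696 genes. They comprise 18 cytosolic enzymes or subunits, 17 mitochondrial enzymes and Gars and Kars, which each serve both compartments. A threonyl enzyme named Tars3 is listed under its older symbol Tarsl2. Its values are given beside the members, but it is not counted among them.

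Each synthetase recognises its amino acid and the matching tRNAs, joins them with the energy of ATP, and so sets the fidelity of translation. The cytosol and the mitochondrion use separate sets of enzymes, all of them encoded in the nucleus and nearly all by separate genes. Several cytosolic synthetases sit in a multi-tRNA synthetase complex on the scaffold proteins Aimp1, Aimp2 and Eef1e1. In mammalian cells, many cytosolic synthetase genes are targets of ATF4, the transcription factor made when amino acids run short.

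Livers came from adult male mice on a C57BL/6J background that lacked IRP1 (Aco1-/-, allele Aco1tm1.1Mwh) or IRP2 (Ireb2-/-, allele Ireb2tm1.2Mwh) in the whole body, and from wild-type controls of each line (Aco1+/+ and Ireb2+/+). IRP1 and IRP2 are iron regulatory proteins that bind iron responsive elements in mRNAs. The design compares each knockout with its control, the times of day with each other, and the effect of the knockout between the times. Livers were taken at ZT5 and at ZT12, in hours after lights on, from 3 mice per genotype and time, 24 in all. Each liver gave 1 library of ribosome-protected fragments (RPFs, the mRNA pieces inside translating ribosomes) and 1 library of total RNA. Levels are coding-sequence counts scaled to library size (CPM) by the upper quartile, and translation efficiency (TE) is the log2 ratio of RPF to RNA in the same liver. In whole tissue, fewer cells of a type and less RNA per cell cannot be told apart.

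Coding-sequence counts per library ran from 852293 to 3993492 in RNA and from 2448915 to 13439600 in RPFs. Aco1 RPFs were 74.8 to 123.2 CPM in Aco1-/- livers and 347.1 to 591 CPM in Aco1+/+ livers, and Ireb2 RPFs were 32.5 to 41.2 CPM in Ireb2-/- livers and 62.3 to 81.4 CPM in Ireb2+/+ livers, in the direction of the labels. The RNA of the knocked-out genes was still present, at 114 to 215 CPM for Aco1 in Aco1-/- livers and 98.9 to 162 CPM for Ireb2 in Ireb2-/- livers. Sums of cell type markers are given as plain CPM of the coding-sequence total, without the upper-quartile scaling used for single genes. The 8 hepatocyte markers, none of them at 0 throughout, together made up 121010 to 163020 CPM of RNA at ZT5 and 142930 to 177530 CPM at ZT12, and 143590 to 191780 CPM of RPFs at ZT5 and 173540 to 203790 CPM at ZT12. In RNA, summed markers were 353 to 582 CPM for Kupffer cells, 277 to 373 CPM for endothelium, 412 to 673 CPM for stellate cells, 0.0 to 12.3 CPM for cholangiocytes, 1.53 to 92.5 CPM for erythroid cells and 0.0 to 2.39 CPM for lymphocytes.

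A pair of livers stood apart. The 4 pancreatic acinar markers Cela1, Pnlip, Cpa1 and Ctrb1, none of them at 0 throughout, summed on the same plain CPM scale to 9690 CPM of RNA and 13225 CPM of RPFs in Ireb2+/+ replicate 3 at ZT5, and to 220 and 653 CPM in Ireb2-/- replicate 1 at ZT12. In the other 22 livers the sums were 1.86 to 25.4 CPM in RNA and 1.97 to 10.2 CPM in RPFs. Acinar cells make secreted enzymes and are rich in the machinery of protein synthesis. Calls of synthetases that these livers decided, and the differences of the members with the smallest p in the Ireb2 comparisons, are given with and without them.

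Promoter windows are shown because the ATF4 response element was searched in the members. The RefSeq promoter table (GRCm38.p6) held an entry for 28 of 38 symbols looked for, each covering 250 bases before and 50 bases after a gene's start. The letters TGATGNAA, the core of the C/EBP-ATF response element, were searched on both strands. They occurred in 3.97% of the 32851 promoters in the table and in those of Aars, Gars, Iars, Tars and Yars. These are 4 of the 11 cytosolic members with an entry, 1 of the 2 members that serve both compartments and 0 of 14 mitochondrial members. The match lay 15 bases before the start in Tars, 30 before in Gars, 112 before and 9 after in Aars, 7 after in Iars and 3 after in Yars. The start meant is that of the promoter entry. For Aars and Yars it lies inside the span of the gene, which begins at chr8:111027778 and chr4:129189734. The windows printed here run from 125 bases before to 20 bases after the start, 145 bases each, with the matches in capitals. They lie at chr15:11399639-11399783 on the minus strand for Tars, and on the plus strand at chr8:111033717-111033861 for Aars, chr6:55037876-55038020 for Gars, chr13:49682005-49682149 for Iars and chr4:129189778-129189922 for Yars.
Tars: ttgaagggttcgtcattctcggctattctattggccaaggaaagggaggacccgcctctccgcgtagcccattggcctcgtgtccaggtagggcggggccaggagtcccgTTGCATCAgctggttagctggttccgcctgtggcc
Aars: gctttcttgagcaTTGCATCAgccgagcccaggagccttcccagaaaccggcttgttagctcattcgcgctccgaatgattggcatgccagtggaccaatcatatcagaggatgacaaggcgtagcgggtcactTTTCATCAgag
Gars: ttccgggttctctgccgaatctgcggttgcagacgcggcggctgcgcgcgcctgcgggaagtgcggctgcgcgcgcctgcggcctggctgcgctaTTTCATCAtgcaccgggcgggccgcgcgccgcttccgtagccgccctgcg
Iars: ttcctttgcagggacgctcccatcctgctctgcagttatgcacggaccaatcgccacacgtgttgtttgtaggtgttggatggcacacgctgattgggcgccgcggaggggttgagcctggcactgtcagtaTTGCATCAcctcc
Yars: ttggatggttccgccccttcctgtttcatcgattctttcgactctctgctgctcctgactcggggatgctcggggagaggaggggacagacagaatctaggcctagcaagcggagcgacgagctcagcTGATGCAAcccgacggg

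In Aars, Gars, Iars and Tars the match reads in the opposite direction to the gene (TTGCATCA or TTTCATCA), and in Yars in the same direction. The E-box CACGTG, the palindrome that clock transcription factors bind, occurred in 7.15% of all promoters and in those of Aars, Ears2, Farsb, Iars and Tars. The palindromic core of the NRF1 motif, CGCATGCG, occurred in 1.87% of all promoters and in those of Vars2 and Wars2. NRF1 is known for activating nuclear genes of the mitochondrion. Cars, Hars, Lars, Nars, Rars, Vars, Wars, Hars2 and Pars2 were among the members not in the table.

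In RNA over all 24 livers, the largest called time-of-day difference among the synthetases was that of Tars, the cytosolic threonyl enzyme (chr15:11383663-11399658 in GRCm38.p6). Tars RNA was lower at ZT12 than at ZT5, with 182, 194 and 186 CPM at ZT5 and 128, 99.3 and 129 CPM at ZT12 in Aco1+/+ livers. In Aco1-/- livers it was 211, 171 and 208 CPM at ZT5 and 115, 117 and 116 CPM at ZT12. All 3 livers at ZT12 lay below all 3 at ZT5 in each of these genotypes. In Ireb2+/+ livers it was 187, 156 and 163 CPM at ZT5 and 126, 125 and 144 CPM at ZT12, and in Ireb2-/- livers 188, 206 and 142 CPM at ZT5 and 131, 112 and 111 CPM at ZT12. The groups did not overlap in these genotypes either. Over all 24 livers, 11 of 12 livers at ZT12 lay below every liver at ZT5, and Tars RNA fell by 0.60 on the log2 scale (SE 0.0697, adjusted p = 1.70e-08, edgeR's quasi-likelihood test).

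Tars RPFs followed the same order, with 241, 232 and 249 CPM at ZT5 and 170, 137 and 192 CPM at ZT12 in Aco1+/+ livers, and 247, 220 and 270 CPM at ZT5 and 168, 143 and 188 CPM at ZT12 in Aco1-/- livers. In Ireb2+/+ livers they were 269, 241 and 257 CPM at ZT5 and 185, 181 and 222 CPM at ZT12, and in Ireb2-/- livers 252, 274 and 215 CPM at ZT5 and 187, 192 and 160 CPM at ZT12. Again 11 of 12 livers at ZT12 lay below every liver at ZT5. Tars RPFs fell by 0.48 (SE 0.0677, adjusted p = 3.11e-06). The TE of Tars did not pass the test between times and had a mean of 0.49 ± 0.14 (SD, n = 24), which stands for 1.41 RPF per RNA on the CPM scale.

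**Figure D1:**
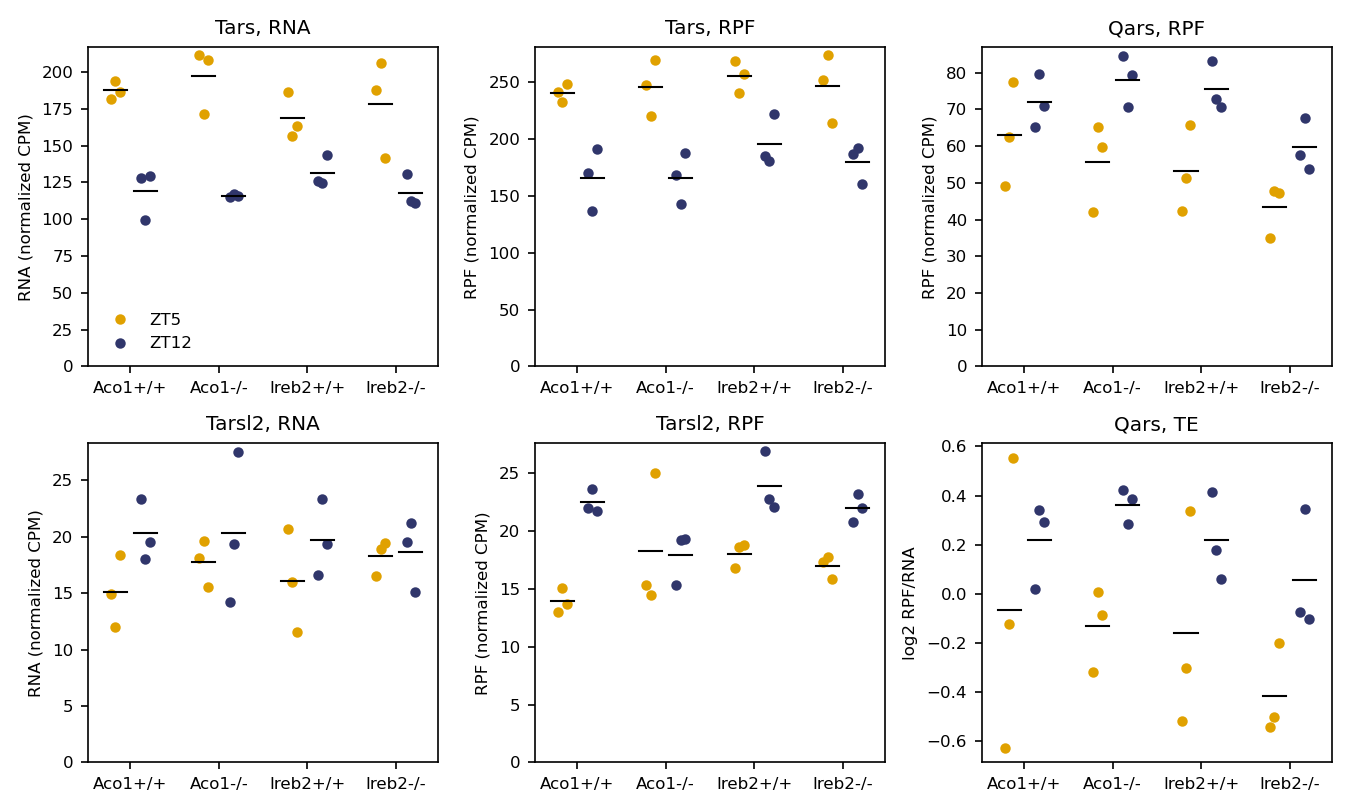
Normalized CPM in RNA and RPFs of Tars and Tarsl2, RPF CPM of Qars, and log2 TE of Qars. Each point is 1 liver, 3 for each genotype at ZT5 (yellow) and ZT12 (dark blue), and bars are group means. Tars is lower at ZT12 in both libraries, whereas Qars is higher in RPFs and in TE.

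Of the 37 synthetases, 7 passed the test between ZT12 and ZT5 in RNA, 1 higher and 6 lower at ZT12, against 22.3% of all genes tested (9.71% higher and 12.5% lower). In RPFs 11 passed, 5 higher and 6 lower, against 31.8% of all genes (13.6% higher and 18.2% lower). The median difference of the 37 was −0.07 in RNA and −0.06 in RPFs, beside −0.04 for all genes in both. In TE 1 member passed, Qars, against 0.486% of all genes (0.365% higher and 0.122% lower). The summed hepatocyte markers reached higher at ZT12 than at ZT5 in both libraries, with overlapping ranges, and the 4 endothelial markers summed to 225 to 291 plain CPM of RPFs at ZT5 and 194 to 256 at ZT12. Their part in the time-of-day results was not tested.

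**Figure D2:**
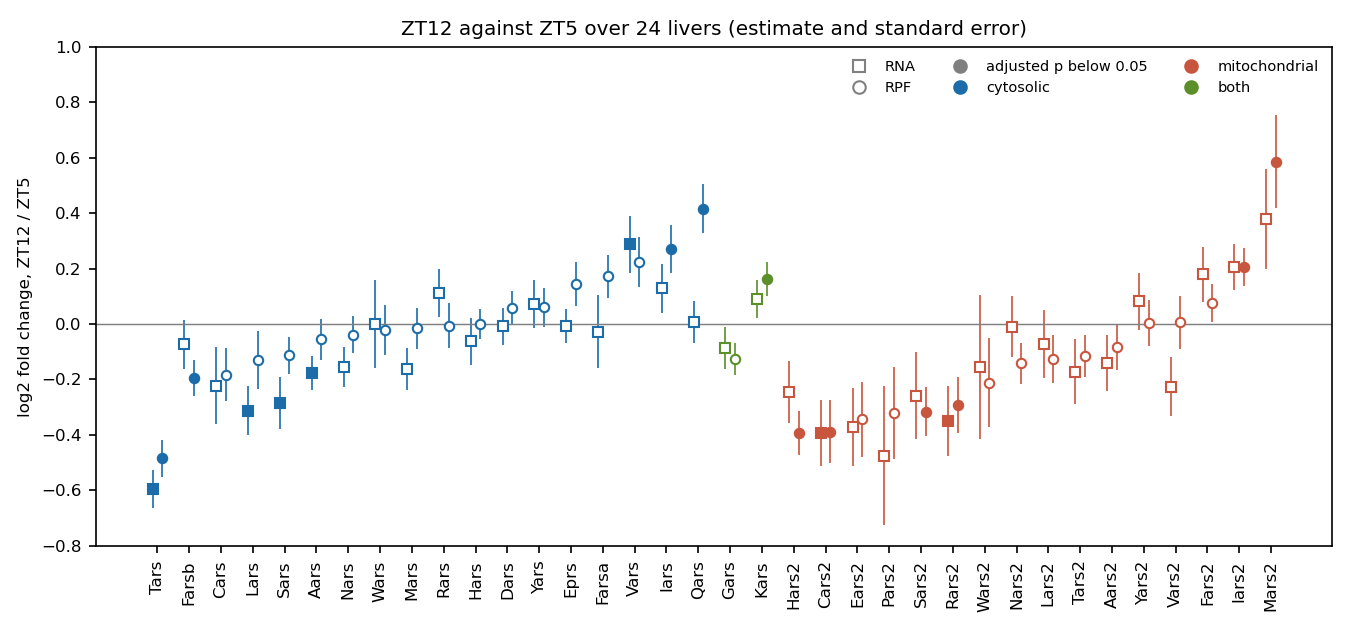
Log2 fold change of ZT12 against ZT5 over 24 livers, with its standard error, for 36 synthetases. Squares are RNA and circles RPFs, filled where the adjusted p is below 0.05, and colours mark cytosolic, mitochondrial and shared enzymes. Tars is the lowest cytosolic member in both libraries, and Qars and Mars2 are the highest in RPFs of their compartments.

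Among cytosolic enzymes, Lars (leucyl), Sars (seryl) and Aars (alanyl) RNA fell alongside Tars and Vars (valyl) RNA rose. Lars RNA was 50.4 to 78.2 CPM at ZT5 (median 60.5) and 31.5 to 65.7 CPM at ZT12 (median 50.3). It fell by 0.31 (adjusted p = 0.00811), with 6 of 12 livers at ZT12 below every liver at ZT5. Sars RNA was 38.0 to 80.2 CPM at ZT5 (median 49.0) and 30.5 to 53.3 CPM at ZT12 (median 41.6), a difference of −0.29 (adjusted p = 0.0233). The highest value, 80.2 CPM, was that of the Ireb2+/+ liver with acinar RNA, and without the pair of livers the difference was −0.19 (adjusted p = 0.120). Aars RNA was 259 to 429 CPM at ZT5 (median 307) and 234 to 324 CPM at ZT12 (median 280.0), a difference of −0.18 (adjusted p = 0.0309). It too was highest in that liver, and without the pair the difference was −0.16 (adjusted p = 0.0743). Vars RNA was 23.5 to 53.1 CPM at ZT5 (median 38.3) and 35.4 to 57.4 CPM at ZT12 (median 43.3), and rose by 0.29 (adjusted p = 0.0385). The ranges of Lars, Sars, Aars and Vars overlap between the times.

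In RPFs the cytosolic glutaminyl enzyme Qars (chr9:108508005-108515941) stood opposite to Tars. Its RPFs were 49.2, 62.4 and 77.3 CPM at ZT5 and 65.3, 79.6 and 70.8 CPM at ZT12 in Aco1+/+ livers, and 42.1, 65.2 and 59.8 CPM at ZT5 and 84.5, 70.6 and 79.3 CPM at ZT12 in Aco1-/- livers. In Ireb2+/+ livers they were 42.4, 51.2 and 65.6 CPM at ZT5 and 83.1, 72.7 and 70.5 CPM at ZT12, and in Ireb2-/- livers 35.1, 47.8 and 47.2 CPM at ZT5 and 57.7, 67.7 and 53.7 CPM at ZT12. The times overlap in Aco1+/+ livers and in no other genotype, and all 12 livers at ZT12 were above the ZT5 median of 50.2 CPM. Qars RPFs rose by 0.42 (SE 0.0883, adjusted p = 6.42e-04), while Qars RNA, 51.1 to 76.0 CPM at ZT5 and 53.4 to 67.7 CPM at ZT12, did not pass the test.

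The TE of Qars rose by 0.42 (SE 0.0997, adjusted p = 0.0283). It ran from −0.63 to 0.55 at ZT5 (median −0.25) and from −0.10 to 0.42 at ZT12 (median 0.29), and all 12 livers at ZT12 were above the ZT5 median. The highest 2 livers at ZT5 were Aco1+/+ replicate 3, at 0.55, and Ireb2+/+ replicate 3 with acinar RNA, at 0.34. Without the pair of livers with acinar RNA the difference was 0.50 (adjusted p = 0.00261). The call was lost when any of 11 of the 24 mice was left out, with adjusted p between 0.00163 and 0.102 over the 24. These were replicates 1 and 2 of Aco1+/+, Ireb2+/+ and Ireb2-/- at ZT5, replicate 1 of Aco1-/- at ZT5, and at ZT12 replicates 2 and 3 of Aco1+/+, replicate 1 of Ireb2+/+ and replicate 2 of Ireb2-/-. With libraries not paired by mouse the adjusted p was 0.166, and with limma 0.297.

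Iars (isoleucyl) and Kars (lysyl) RPFs rose as well and those of Farsb, the beta subunit of the phenylalanyl enzyme, fell. Iars RPFs were 52.5 to 102 CPM at ZT5 (median 60.8) and 57.5 to 92.8 CPM at ZT12 (median 82.9), a rise of 0.27 (adjusted p = 0.0170) with 11 of 12 livers at ZT12 above the ZT5 median. With the first sequencing run of each library alone it was 0.25 (adjusted p = 0.0517). Kars RPFs were 60.5 to 79.4 CPM at ZT5 (median 68.3) and 68.9 to 84.0 CPM at ZT12 (median 78.0), a rise of 0.16 (adjusted p = 0.0451) that became 0.17 (adjusted p = 0.0532) without the pair of livers. Farsb RPFs were 62.5 to 76.5 CPM at ZT5 (median 71.5) and 48.7 to 72.5 CPM at ZT12 (median 61.2), and fell by 0.20 (adjusted p = 0.0235), with a value of −0.16 (adjusted p = 0.0632) by DESeq2. Its partner Farsa, the catalytic alpha subunit, had a difference of 0.17 (adjusted p = 0.0930). Qars, Iars and Kars are 3 enzymes of the multi-tRNA synthetase complex, a grouping chosen after the values were seen. The complex also holds Eprs, Mars, Rars, Dars and Lars, whose RPF differences were 0.14, −0.02, −0.01, 0.06 and −0.13, and none of these 5 passed the test.

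Among mitochondrial enzymes, Cars2 (cysteinyl) and Rars2 (arginyl) RNA fell, and in RPFs Hars2 (histidyl), Sars2 (seryl), Cars2 and Rars2 fell while Mars2 (methionyl) and Iars2 (isoleucyl) rose. Hars2 RPFs were 21.5 to 30.7 CPM at ZT5 (median 25.5) and 14.0 to 24.6 CPM at ZT12 (median 19.8), with 9 of 12 livers at ZT12 below every liver at ZT5 and all 12 below the ZT5 median. They fell by 0.39 (SE 0.0795, adjusted p = 3.87e-04), while Hars2 RNA differed by −0.25 (adjusted p = 0.113). The spans of Hars2 and Hars, which are read in opposite directions, overlap at their ends by a few bases, from chr18:36783202 to chr18:36783205. The strand used in counting is not given, so reads there cannot be told apart. Their part in the Hars2 result was not tested. Hars RPFs differed by 0.00.

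Sars2 RPFs were 12.3 to 17.8 CPM at ZT5 (median 15.5) and 9.39 to 15.0 CPM at ZT12 (median 13.4), all 12 livers at ZT12 below the ZT5 median, a fall of 0.32 (adjusted p = 0.00644). Cars2 fell by 0.39 in both libraries (adjusted p = 0.0138 in RNA and 0.00903 in RPFs). Its RPFs were 9.38 to 14.6 CPM at ZT5 (median 11.1) and 5.89 to 11.4 CPM at ZT12 (median 7.92), with 8 of 12 livers at ZT12 below every liver at ZT5. With the first sequencing run alone, the difference of Cars2 was −0.18 in RNA (adjusted p = 0.502) and −0.34 in RPFs (adjusted p = 0.0683). Rars2 RNA fell by 0.35 (adjusted p = 0.0398) and its RPFs by 0.29 (adjusted p = 0.0269). The RPF difference of Rars2 was −0.19 (adjusted p = 0.331) with the first run alone and −0.26 (adjusted p = 0.0909) by DESeq2, and without the pair of livers with acinar RNA the RNA difference was −0.35 (adjusted p = 0.0573).

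Mars2 RPFs were 1.82 to 5.86 CPM at ZT5 (median 3.51) and 2.87 to 7.59 CPM at ZT12 (median 5.91), a rise of 0.59 (SE 0.169, adjusted p = 0.00872) on a median of 22.0 counts per library. Iars2 RPFs were 60.9 to 95.1 CPM at ZT5 (median 83.5) and 83.6 to 103 CPM at ZT12 (median 90.4), all 12 livers at ZT12 above the ZT5 median, a rise of 0.21 (adjusted p = 0.0221). The mitochondrial members differed among themselves: 12 of 17 had a negative difference in RPFs, with a median of −0.14. Of the cytosolic members 10 of 18 were negative, with a median of −0.01. The lowest counts were those of Pars2, Wars2 and Mars2, with medians of 7.5, 8.0 and 11.5 RNA counts per library, beside 766 for Aars.

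Some of these calls depended on the processing and others held. Over 32 alternatives the calls of Tars and Lars in RNA and of Tars, Hars2, Qars, Sars2 and Iars2 in RPFs were lost in 0, as was that of Mars2 over 31. Kars in RPFs was lost in 19 of 32, Rars2 in RNA in 16, Vars in RNA in 14, Aars in RNA in 11, Sars in RNA in 6, Rars2 in RPFs in 5, Farsb in RPFs in 3, Cars2 in RNA in 2, and Cars2 and Iars in RPFs in 1 each. Without the pair of livers with acinar RNA 4 members passed in RNA, beside 20.6% of all genes, and 10 in RPFs, beside 28.8%. In RNA, 4 also passed without any 1 of Aco1-/- replicate 3 or Aco1+/+ replicate 2 at ZT12, or Aco1+/+ replicate 2, Ireb2-/- replicate 1 or Ireb2+/+ replicate 3 at ZT5. The share of all genes that passed in these 5 fits was, in the same order, 20.9%, 20.2%, 19.5%, 20.1% and 22.9%, beside 22.3% with every liver.

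Single livers decided several of the weaker calls, each without a change of direction. Aars RNA was −0.17 to −0.15 and missed the threshold (adjusted p between 0.0503 and 0.0654) without any 1 of 7 livers, Aco1-/- replicate 3, Aco1+/+ replicate 3, Ireb2-/- replicate 2 or Ireb2+/+ replicate 3 at ZT5, or Aco1-/- replicate 3, Aco1+/+ replicate 2 or Ireb2+/+ replicate 1 at ZT12. Sars RNA was −0.26 to −0.20 (adjusted p between 0.0508 and 0.0680) without any 1 of 4, Aco1+/+ replicate 1, Ireb2-/- replicate 1 or Ireb2+/+ replicate 3 at ZT5, or Aco1+/+ replicate 2 at ZT12. Cars2 RNA was −0.33 (adjusted p = 0.0535) without Aco1+/+ replicate 2 at ZT5. Vars RNA was 0.24 to 0.29 (adjusted p between 0.0511 and 0.0936) without any 1 of 12, replicates 1 and 2 of Aco1-/-, Aco1+/+ and Ireb2+/+ and replicates 1 and 3 of Ireb2-/- at ZT5, or Aco1-/- replicate 3, Aco1+/+ replicate 1, Ireb2-/- replicate 2 or Ireb2+/+ replicate 3 at ZT12. Rars2 RNA was −0.35 to −0.29 (adjusted p between 0.0503 and 0.110) without any 1 of 12, replicates 1 and 3 of Aco1-/-, replicate 2 of Aco1+/+, replicates 1 and 2 of Ireb2-/- and replicate 3 of Ireb2+/+ at ZT5, or Aco1-/- replicate 3, Ireb2-/- replicate 2 or replicates 2 and 3 of Aco1+/+ and Ireb2+/+ at ZT12.

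In RPFs, Farsb was −0.17 (adjusted p between 0.0521 and 0.0540) without Ireb2-/- replicate 2 at ZT5 or Ireb2+/+ replicate 1 at ZT12. Rars2 was −0.26 to −0.25 (adjusted p between 0.0530 and 0.0549) without Ireb2+/+ replicate 3 at ZT5, or Aco1+/+ replicate 2 or Ireb2-/- replicate 2 at ZT12. Kars was 0.14 to 0.17 (adjusted p between 0.0526 and 0.0841) without any 1 of 16, replicates 1 and 3 of Aco1-/- and Ireb2-/-, 2 and 3 of Aco1+/+ and 1 and 2 of Ireb2+/+ at ZT5, or replicates 1 and 2 of Aco1-/- and Ireb2-/- and 1 and 3 of Aco1+/+ and Ireb2+/+ at ZT12.

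Tarsl2, which encodes another threonyl enzyme of the cytosol, was higher at ZT12 in RPFs, the opposite of Tars. Its RPFs were 13.0, 15.0 and 13.6 CPM at ZT5 and 22.0, 23.7 and 21.7 CPM at ZT12 in Aco1+/+ livers, with no overlap. Over all livers they ran from 13.0 to 25.0 CPM at ZT5 (median 16.3) and from 15.3 to 26.9 CPM at ZT12 (median 22.0), with 11 of 12 livers at ZT12 above the ZT5 median. The rise was 0.36 (SE 0.0830, adjusted p = 0.00141), and RNA differed by 0.26 (adjusted p = 0.0989). Tars and Tarsl2 are related in sequence, and how the counting treated reads that match both is not given.

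Within single genotypes, each with 3 livers per time, few members passed. In RNA, Tars passed in Aco1+/+ (−0.66, adjusted p = 0.00258, against 7.05% of all genes), in Aco1-/- (−0.76, adjusted p = 7.72e-04, against 5.15%) and in Ireb2-/- livers (−0.59, adjusted p = 0.0214, against 2.77%), and was the 1 member to pass in each. In Ireb2+/+ livers, where 2.29% of all genes passed, 0 members did, 5 of 37 had an unadjusted p under 0.05 (15.1% of all genes), DESeq2 called 0, and the difference of Tars was −0.37 (adjusted p = 0.211). The difference of Tars RNA between genotypes in this response was not past the test in either line. Leaving out replicate 2 of Aco1+/+ at ZT12 gave −0.54 (adjusted p = 0.0513), and leaving out Ireb2-/- replicate 1 or 2 at ZT5, or 2 or 3 at ZT12, gave −0.56 to −0.48 (adjusted p between 0.0792 and 0.195).

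In RPFs, 1 member passed in Aco1+/+ livers (6.64% of all genes), 2 in Aco1-/- livers (12.1%), 2 in Ireb2+/+ livers (7.53%) and 1 in Ireb2-/- livers (5.73%). Tars passed in Aco1+/+ (−0.53, adjusted p = 0.0387), Aco1-/- (−0.56, adjusted p = 0.0197) and Ireb2-/- livers (−0.46, adjusted p = 0.0303). Each of these calls was lost on leaving out single livers. The values were −0.56 to −0.41 (adjusted p between 0.0524 and 0.209) without any of replicates 1 to 3 at ZT5 or 1 or 2 at ZT12 of Aco1+/+, −0.57 to −0.47 (0.0548 to 0.0962) without replicate 1 at ZT5 or 1 or 2 at ZT12 of Aco1-/-, and −0.49 to −0.38 (0.0691 to 0.181) without replicate 1 or 2 at ZT5 or 1 or 3 at ZT12 of Ireb2-/-. Sars2 RPFs passed in Aco1-/- livers, with 16.7, 17.7 and 15.0 CPM at ZT5 and 9.40, 13.5 and 9.39 CPM at ZT12 (−0.62, adjusted p = 0.0447), with no overlap. Without replicate 1 or 2 at ZT5 or 1 or 3 at ZT12 of Aco1-/- it was −0.61 to −0.52 (adjusted p between 0.105 and 0.146). By DESeq2 the Sars2 difference was −0.57 (adjusted p = 0.135). In Ireb2+/+ livers Lars (−0.48, adjusted p = 0.0459) and Qars (0.51, adjusted p = 0.0487) passed. Without the 2 livers with acinar RNA the values were −0.40 (adjusted p = 0.184) for Lars and 0.68 (adjusted p = 0.0162) for Qars, and without the Ireb2+/+ liver of this pair alone Lars was −0.40 (adjusted p = 0.158). Without replicate 1 at ZT5 or replicate 1 or 2 at ZT12 of Ireb2+/+, Lars was −0.45 to −0.42 (adjusted p between 0.114 and 0.188). Without replicate 1 or 2 at ZT5 or any of the 3 at ZT12, Qars was 0.37 to 0.55 (adjusted p between 0.0716 and 0.238). Tars in Ireb2-/- livers was −0.49 (adjusted p = 0.0697) without the 2 livers with acinar RNA.

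In TE, 0 members passed between times within a genotype, against 0.0187% of all genes in Aco1+/+, 0.15% in Aco1-/-, 0.533% in Ireb2+/+ and 0.00935% in Ireb2-/- livers. DESeq2 called 0 as well, and 2, 6, 1 and 3 of 37 members in the same order had an unadjusted p under 0.05, beside 7.49%, 8.05%, 8.22% and 4.52% of all genes. Qars TE in Ireb2+/+ livers was −0.52, −0.30 and 0.34 at ZT5 and 0.42, 0.18 and 0.06 at ZT12. The value 0.34 is that of the liver with acinar RNA. The difference was 0.41 (adjusted p = 0.463) with it and 0.64 (adjusted p = 0.00314) without the 2 livers with acinar RNA.

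The comparisons of genotypes asked whether loss of IRP1 or IRP2 changed the synthetases. In RNA 0 of 37 members passed for Ireb2 at ZT5 (0.00935% of all genes) or ZT12 (0.0187%), or for Aco1 at ZT5 (0.0%) or ZT12 (0.00935%). In RPFs 0 passed for Ireb2 at ZT5 (0.0654%) or ZT12 (0.028%), or for Aco1 at ZT5 (0.00935%) or ZT12 (0.299%). In TE 0 passed for Ireb2 at ZT5 (0.00935%) or ZT12 (0.0%), or for Aco1 at ZT5 (0.00935%) or ZT12 (0.0935%). DESeq2 called 0 in each of the 12 comparisons. At an unadjusted p under 0.05, in the same order, 3, 1, 1 and 1 of 37 members lay in RNA, beside 5.64%, 4.21%, 3.73% and 7.66% of all genes. In RPFs they were 5, 2, 0 and 3, beside 7.64%, 7.62%, 2.79% and 12.7%, and in TE 0, 1, 2 and 2, beside 7.01%, 3.56%, 2.54% and 6.71%. The test of genotype by time also gave 0 members in RNA (0.0% of all genes in both lines), RPFs (0.0% in both) and TE (0.0% in Ireb2 and 0.028% in Aco1), by DESeq2 as well. At an unadjusted p under 0.05 there were 1, 2 and 1 members in Ireb2, beside 3.86%, 3.98% and 5.25% of all genes, and 1, 0 and 2 in Aco1, beside 5.87%, 5.52% and 4.75%.

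The members with the smallest unadjusted p are given as values. For Ireb2 at ZT5 they were Iars in RPFs, with 81.9, 70.4 and 102 CPM in Ireb2+/+ and 59.5, 62.1 and 57.0 CPM in Ireb2-/- livers (−0.51, SE 0.163, adjusted p = 0.483), and Eprs, the enzyme that charges both glutamate and proline (−0.30). In RNA Iars was again lowest in p, at 49.981, 51.5 and 73.9 CPM against 42.0, 40.8 and 37.8 CPM (−0.53, adjusted p = 0.826), followed by Yars, the tyrosyl enzyme (−0.40). In both libraries the 3 Ireb2-/- livers lay below the 3 Ireb2+/+ livers, of which the highest was the liver with acinar RNA. Without that liver Iars was −0.35 in RPFs (SE 0.163, unadjusted p = 0.0447 by edgeR's quasi-likelihood test) and −0.34 in RNA (SE 0.171, unadjusted p = 0.0596), Eprs RPFs were −0.25 (unadjusted p = 0.0717, against 0.0207 with it) and Yars RNA −0.29 (0.127, against 0.0337). At an unadjusted p under 0.05, 1 of 37 members was then left in RPFs (4.55% of all genes) and 0 in RNA (3.95%). At ZT12 the smallest p in RPFs belonged to Tars2, the mitochondrial threonyl enzyme, with 19.0, 20.2 and 17.1 CPM in Ireb2+/+ and 26.9, 21.3 and 27.6 CPM in Ireb2-/- livers (0.45, SE 0.156, adjusted p = 0.473), and to Qars (−0.34). In RNA they were Pars2 (1.58), on few counts, and Rars (0.33). Without the Ireb2-/- liver with acinar RNA the RPF differences were 0.40 for Tars2 (unadjusted p = 0.0341, against 0.00958 with it, edgeR's quasi-likelihood test) and −0.31 for Qars (0.101, against 0.0423). The RNA differences were 1.37 for Pars2 (0.0796, against 0.0173) and 0.34 for Rars (0.111, against 0.0689). Of these 4, Tars2 alone stayed under 0.05.

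For Aco1 at ZT12 the smallest p in RPFs was that of Farsa, with 43.7, 29.5 and 36.978 CPM in Aco1+/+ and 24.4, 27.4 and 27.6 CPM in Aco1-/- livers (−0.47, SE 0.167, adjusted p = 0.254), and then of Nars, the asparaginyl enzyme (−0.42). The Farsa groups did not overlap. In RNA they were Rars2 (−0.59) and Gars, the glycyl enzyme (−0.33). At ZT5 they were Dars, the aspartyl enzyme, in RPFs (0.18) and Fars2 (−0.19), and Sars2 (−0.67) and Aars2 (−0.42) in RNA. Sars2 had few RNA counts, with a median of 19.0 per library and 4 in the lowest. In TE the smallest p belonged to Sars2 (0.81) and Aars2 (0.58) for Aco1 at ZT5, Eprs (0.31) and Farsa (−0.53) for Aco1 at ZT12, Kars (−0.29) and Hars2 (0.40) for Ireb2 at ZT5, and Tars2 (0.58) and Ears2 (0.58) for Ireb2 at ZT12. For genotype by time they included Eprs (−0.37) in Aco1 RNA, Yars (0.56) and Iars (0.44) in Ireb2 RNA, Sars2 (−0.53) and Farsb (−0.35) in Aco1 RPFs, Iars (0.56) and Farsa (0.44) in Ireb2 RPFs, Sars2 (−1.11) in Aco1 TE, and Tars2 (0.64) and Dars (0.35) in Ireb2 TE. Without the 2 livers with acinar RNA, the Ireb2 values for genotype by time were 0.50 for Yars (unadjusted p = 0.0821, against 0.0345 with them) and 0.33 for Iars (0.194, against 0.0930) in RNA, and 0.34 for Iars (0.176, against 0.0272) and 0.33 for Farsa (0.172, against 0.0431) in RPFs. In TE they were 0.57 for Tars2 (0.0994, against 0.0448) and 0.42 for Dars (0.0188, against 0.0524). The Ireb2 TE values between genotypes were then −0.22 for Kars (0.117, against 0.0565) and 0.38 for Hars2 (0.107, against 0.0932) at ZT5, and 0.46 for Tars2 (0.0893, against 0.0186) and 0.68 for Ears2 (0.101, against 0.122) at ZT12.

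The RPF differences of the cytosolic members between Ireb2-/- and Ireb2+/+ livers at ZT5 all had the same sign although 0 passed the test. They were negative in 18 of 18, from −0.51 to −0.05, with a median of −0.22 beside 0.03 for all genes, and 5 had an unadjusted p under 0.05, beside 7.64% of all genes. In 7 of the 18 all 3 Ireb2-/- livers lay below all 3 Ireb2+/+ livers, against 6.23% of all genes. The members share the same 6 livers and so are not independent of each other. The median log2 CPM of the 18 in RPFs was 6.31, 6.17 and 6.53 in Ireb2+/+ and 6.01, 6.09 and 5.93 in Ireb2-/- livers, where 6.53 is the liver with acinar RNA. Without that liver the count was still 18 of 18 and the median −0.17. The number at an unadjusted p under 0.05 was then 1 of 18 (4.55% of all genes), and 0 with both livers with acinar RNA left out (4.67%). In 8 of the 18 the 3 Ireb2-/- livers lay below the other 2 Ireb2+/+ livers, against 10.1% of all genes. In the same 6 livers the hepatocyte markers summed to 151070, 171190 and 154270 plain CPM of RPFs in Ireb2+/+ and 150550, 181150 and 173340 in Ireb2-/- livers, which overlapped. In RNA the sums were 133430, 147400 and 128970 plain CPM in Ireb2+/+ and 148930, 163020 and 152260 in Ireb2-/- livers, so that all 3 Ireb2-/- livers lay above all 3 Ireb2+/+ livers. The part of these markers in the result was not tested. At ZT12 the values overlapped, at 6.00, 6.13 and 6.26 in Ireb2+/+ and 6.18, 6.24 and 5.89 in Ireb2-/- livers, and 10 of 18 members were negative (median −0.02).

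In RNA at ZT5, 14 of 18 cytosolic members were negative (median −0.14), and 12 of 18 without the liver with acinar RNA (median −0.07). In the mitochondrial members 7 of 17 were negative in RPFs at ZT5 (median 0.01), and 8 of 17 without that liver. In the Aco1 line the cytosolic medians in RPFs were 5.87, 5.94 and 6.32 in Aco1+/+ and 5.70, 6.02 and 6.29 in Aco1-/- livers at ZT5, and 6.27, 6.19 and 6.38 against 6.30, 6.15 and 6.37 at ZT12. The genotypes overlapped at both times, and 9 of 18 members were negative at ZT5 and 11 of 18 at ZT12.

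**Figure D3:**
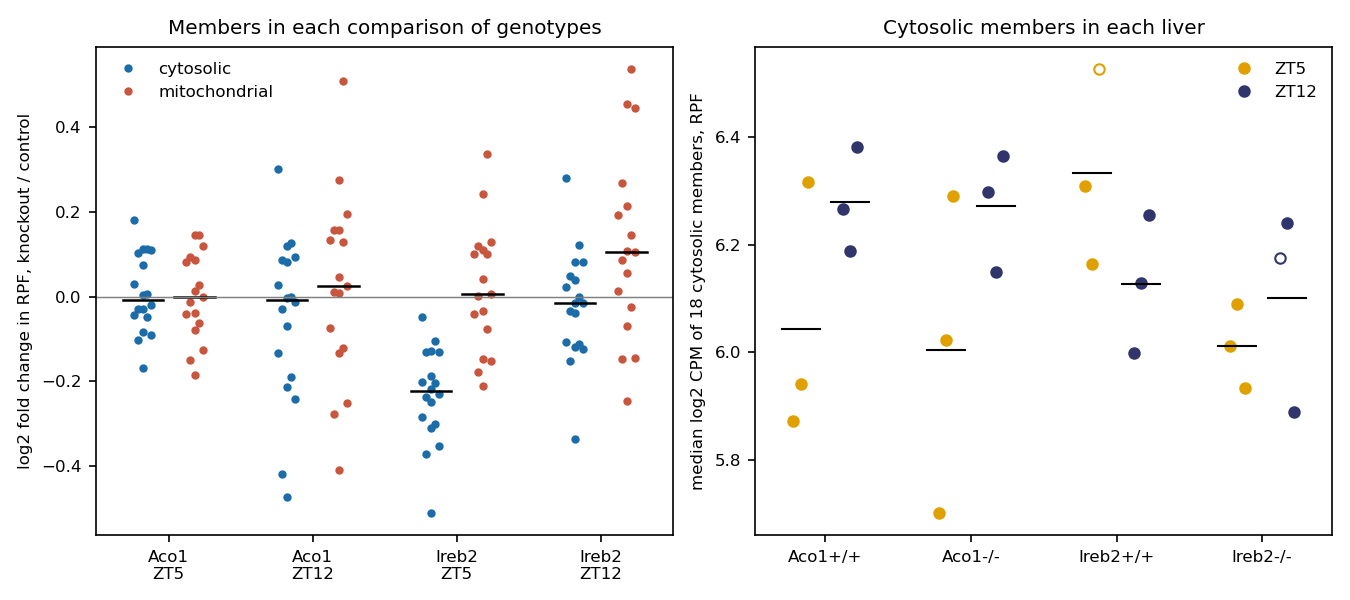
Left, log2 fold change in RPFs of knockout against control for the cytosolic and mitochondrial members in the 4 comparisons, with bars at the medians. Right, the median log2 CPM in RPFs of the 18 cytosolic members in each liver, 3 per group, with bars at the group means and hollow points for the 2 livers with acinar RNA. The 18 cytosolic differences for Ireb2 at ZT5 all lie below 0.

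In the level of TE, a ratio in which the length of the gene cancels, the compartments overlapped but differed in their medians. Mitochondrial members ran from −0.48 to 0.92 and cytosolic members from 0.01 to 1.19. The median TE of the cytosolic members was above that of the mitochondrial members in 24 of 24 livers, by 0.14 to 0.78 (median 0.45) on the log2 scale. Above the median of all genes, 0.11, lay 17 of 18 cytosolic and 8 of 17 mitochondrial members. The highest was Farsa (1.19 ± 0.34, SD, n = 24), above 94.0% of genes, followed by Sars (1.02 ± 0.24), Sars2 (0.92 ± 0.46), Wars, the tryptophanyl enzyme (0.88 ± 0.29), and Nars (0.81 ± 0.23). With the first sequencing run alone the mean of Sars2 was 0.77. The lowest were Cars2 (−0.48 ± 0.28), Aars2 (−0.33 ± 0.31), Vars2 (−0.33 ± 0.38) and Iars2 (−0.20 ± 0.19), and the lowest cytosolic member was Qars (0.01 ± 0.35). In the order of the 37 members and Tarsl2, 0 of the 37 neighbouring pairs differed by more than 1 SD of the paired difference.

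For 15 amino acids both a cytosolic and a mitochondrial enzyme were measured, with Farsa standing for the phenylalanyl pair. The cytosolic enzyme had the higher mean TE for 14 of 15, with a median difference of 0.62. The other phenylalanyl subunit, Farsb, had a mean TE of 0.47, beside 1.19 for Farsa and 0.16 for Fars2. With Farsb in place of Farsa the count would stay at 14 of 15 and the median difference would be lower. It was higher in 24 of 24 livers for Cars and Cars2 (difference 1.06 ± 0.40, SD), Vars and Vars2 (1.03 ± 0.38) and Iars and Iars2 (0.70 ± 0.28). The histidyl pair went the other way, with 0.16 for Hars and 0.40 for Hars2 and the cytosolic enzyme higher in 6 of 24 livers. The seryl enzymes Sars and Sars2 differed by 0.10 ± 0.53, the cytosolic one higher in 12 of 24 livers.

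**Figure D4:**
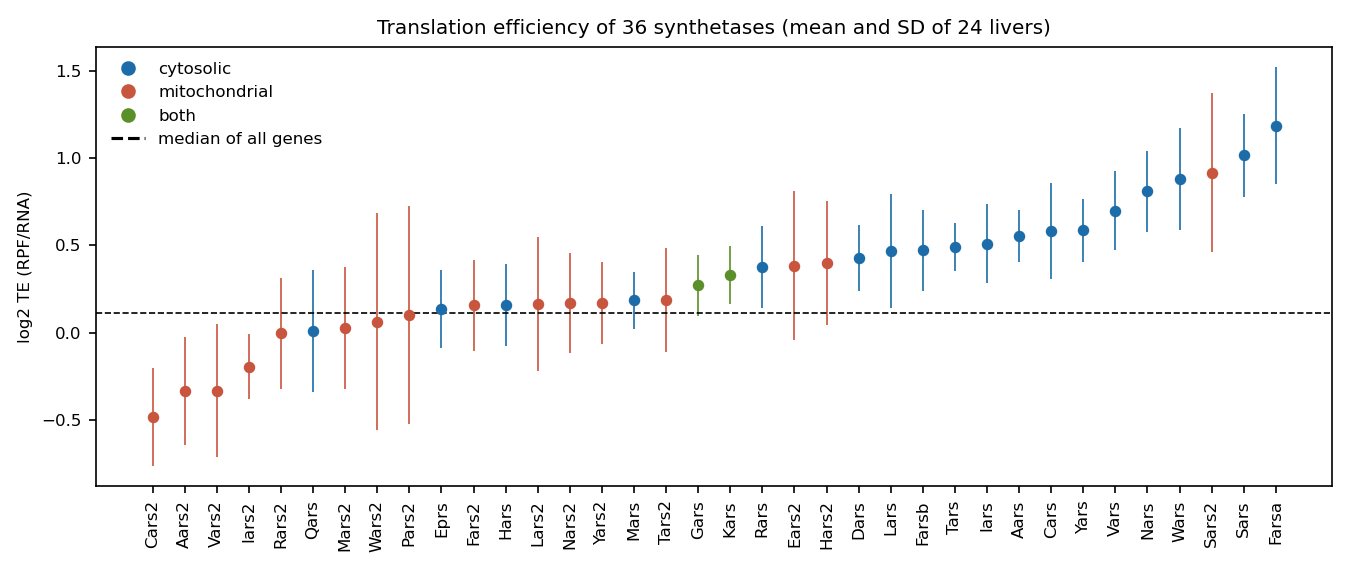
Mean log2 TE with its SD over 24 livers for 36 synthetases in ascending order, coloured by compartment, with the median of all genes as a dashed line. Mitochondrial members fill the 5 lowest places, and 17 of 18 cytosolic members lie above the dashed line.

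Ribosome footprints upstream of the start codon were read from the column of counts taken as the 5′ UTR, an identity read from the values because the columns carry no names. Over the 24 livers 12.2% of the footprints of Vars2 lay there (382 of 3121, and 6.0 to 20.2% in single livers), 11.1% of those of Nars2 (495 of 4466), 6.33% of those of Yars (424 of 6702) and 5.42% of those of Fars2 (255 of 4708). In RNA the same column held 8.44, 6.12, 2.12 and 10.3% of their counts. Vars2, Nars2 and Yars thus held a larger share in RPFs than in RNA, and Fars2 a smaller one. The totals behind these shares are not alike. In RNA the column taken as the 3′ UTR held 7.79, 31.2, 25.7 and 7.67% of the counts of Vars2, Nars2, Yars and Fars2, beside at most 0.209% in RPFs. Of the 37 members 5 lay above 5%, beside 32.7% of all genes, and 3 above 10%, beside 17.8%. The share was under 2% in 29 members, with a median of 0.394% for cytosolic and 0.647% for mitochondrial members, beside 2.16% for all genes.

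Vars2 held 12.3% at ZT5 and 12.2% at ZT12, and Nars2 11.7% and 10.4%. In 8 members the column held 0 footprints, which allows a share of up to 0.0275% for Gars (0 of 10907) and 0.688% for Wars2 (0 of 436), for counting error only. For 3 of these, Aars2, Sars2 and Wars2, the RNA column also held 0. Lars2, the mitochondrial leucyl enzyme, had 15.3% of its footprints in the column taken as the 3′ UTR, where every other member had at most 0.589%.

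**Figure D5:**
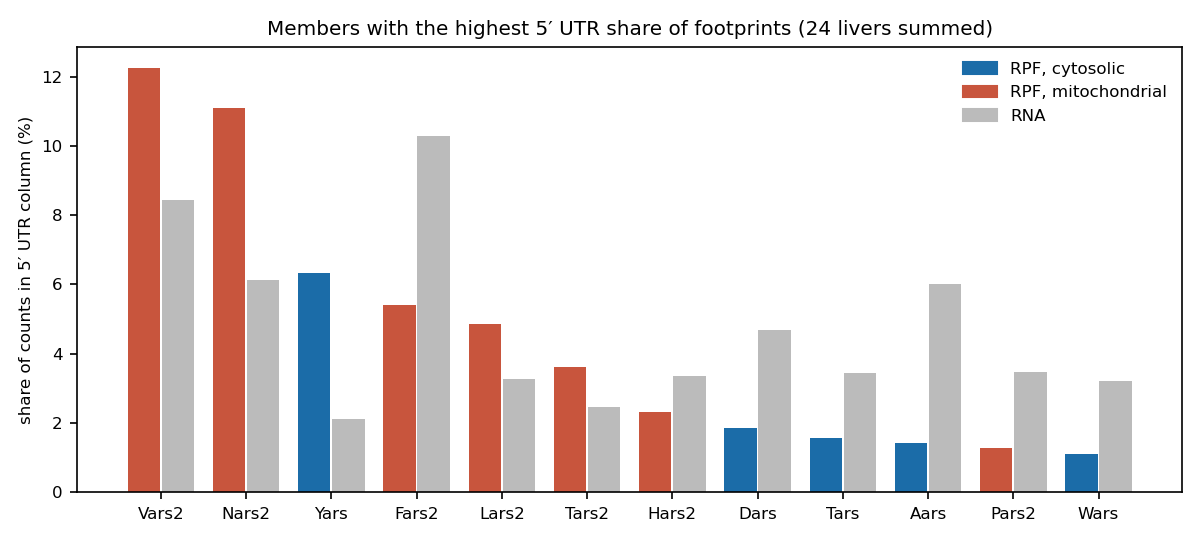
Share of counts in the 5′ UTR column, in percent of all counts of the gene summed over 24 livers, for 12 of the members with the highest share in RPFs. Coloured bars are RPFs by compartment and grey bars RNA; Vars2 and Nars2 exceed 10% in RPFs.

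Of the 13 scaffold and tRNA charging partners, 3 passed between ZT12 and ZT5 over all livers in RPFs (31.8% of all genes) and 0 in RNA (22.3%) or TE (0.486%). RPFs of Aimp2, a scaffold of the synthetase complex, were 13.9 to 22.3 CPM at ZT5 (median 18.7) and 18.5 to 31.0 CPM at ZT12 (median 24.9), and rose by 0.43 (SE 0.0791, adjusted p = 1.39e-04), with 9 of 12 livers at ZT12 above every liver at ZT5. RPFs of the scaffold Aimp1 rose by 0.23 (adjusted p = 0.0301), and those of Dtd1, which removes D-amino acids from tRNA, fell by 0.26 (adjusted p = 0.0438). Within single genotypes, RPFs of Aimp2 (0.82, adjusted p = 0.00470) and Dtd1 (−0.74, adjusted p = 0.0380) passed in Aco1-/- livers and those of Aimp1 in Ireb2+/+ livers (0.69, adjusted p = 0.00855). The scaffold Eef1e1 passed in Ireb2-/- livers (0.79, adjusted p = 0.0480) and Prorsd1 in Aco1+/+ livers (−0.69, adjusted p = 0.0479), and neither passed over all livers. In RNA and TE 0 partners passed within a genotype.

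Of the 25 genes of ATF4 and its targets, 19 were tested, and over all livers 6 passed in RNA (3 higher and 3 lower at ZT12, against 22.3% of all genes), 7 in RPFs (3 higher and 4 lower, against 31.8%) and 1 in TE (against 0.486%). Atf4 RPFs were 18.004 to 36.3 CPM at ZT5 (median 24.9) and 12.6 to 22.9 CPM at ZT12 (median 17.7), and fell by 0.53 (adjusted p = 3.46e-04). Its TE fell by 0.38 (adjusted p = 0.0428), with 11 of 12 livers at ZT12 below the ZT5 median. RPFs of Trib3, a feedback inhibitor of ATF4, fell by 1.43, those of the related factor Atf5 by 1.33 and those of Cth, an enzyme of cysteine synthesis, by 0.63. RPFs of Cebpb, a transcription factor that pairs with ATF4, rose by 0.96, those of Ddit4, an inhibitor of mTORC1 signalling, by 1.10 and those of the amino acid transporter Slc38a2 by 0.64. In RNA, Chac1, an enzyme of glutathione breakdown, rose by 1.74, on 0 to 7 counts per library at ZT5, with 4 of 12 at 0, and 0 to 10 counts at ZT12, with 2 of 12 at 0. Cebpb rose by 0.92 and Slc38a2 by 0.67, and Atf5 fell by 1.18, Trib3 by 1.13, on 1 to 43 counts per library, and Cth by 0.51.

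Within single genotypes, Cebpb RNA rose in Aco1-/- (1.33), Ireb2-/- (0.76) and Ireb2+/+ livers (0.97). Ddit4 RNA rose in Aco1-/- (1.39) and Slc38a2 RNA in Ireb2+/+ livers (0.80). Atf5 RNA fell in Ireb2-/- (−1.17) and Ireb2+/+ livers (−1.36), as did Cth RNA (−0.67 and −0.79), and Trib3 RNA fell in Ireb2-/- livers (−2.35). In RPFs, Atf4 fell in Aco1-/- (−0.81) and Aco1+/+ livers (−0.67), and Atf5 in Aco1-/- (−1.44), Aco1+/+ (−1.54) and Ireb2-/- livers (−1.52). Cth RPFs fell in Aco1+/+ (−0.60), Ireb2-/- (−0.65) and Ireb2+/+ livers (−0.75), and Trib3 RPFs in Ireb2-/- livers (−2.74). Cebpb RPFs rose in Aco1-/- (1.01), Aco1+/+ (0.86) and Ireb2+/+ livers (1.28). In TE 0 genes of this list passed within a genotype. Between genotypes 0 genes of either list passed in RNA, RPFs or TE by edgeR's quasi-likelihood test.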

How the data were processed

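RPF and total RNA libraries from 24 mouse livers were analysed. Per the study's methods and the submitters' processing notes (cutadapt 3.5, Bowtie2, STAR), the authors trimmed adapters, kept reads by quality and size, set aside those from rRNA and tRNA, mapped the rest to GRCm38 with Ensembl release 100 and deposited counts per gene for each sequencing run. The count columns carry no names and were read from the values as 5′ UTR, coding sequence and 3′ UTR. The counting tool and its strand setting are not given in the sources used here. Runs of a library were summed (29 pairs of runs, chi-square per degree of freedom 0.981 to 1.10, against 2.30 to 55.3 between mice of a group), and 0 sample columns were left out.

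Coding-sequence counts of genes passing filterByExpr (minimum count 10, minimum total 15) were scaled by the upper quartile over 48 libraries and tested with edgeR's quasi-likelihood test (edgeR 4.0.16, limma 3.58.1 and R 4.3.3), with Benjamini-Hochberg adjustment over all genes and a threshold of 0.05. Fold changes are log2. TE was tested in 1 model over both library types with a term for the mouse; per-liver TE used a prior count of 0.5. RNA and RPF libraries were paired by the mouse number in their titles, and their deviations from group means correlated in 24 of 24 mice (0.124 to 0.567). Nothing in the labels says more of how replicates were raised, so p-values measure the spread between these mice. Intervals and limits cover counting error only. The comparison over all 24 livers used every genotype. Scripts were tested on simulated data. Between times in Aco1+/+ livers, 12% of 1.5-fold changes were found in RNA, 9% in RPFs and 0% in TE. Over all 24 livers these shares were 81%, 84% and 44%. Unchanged genes made up 3.85%, 10.3% and 19% of the calls in Aco1+/+ livers, at a threshold of 0.05. A count of 0 members within a genotype thus does not show that none changed. DESeq2 1.42.0, limma on TE, TMM, other filters, the first run alone, all count columns, a replicate block, 1 fit of all mice and each mouse left out were alternatives, and leaving out the 2 livers with acinar RNA was added after seeing the data. Python 3.11.15, NumPy 2.4.6, pandas 2.3.3 and Matplotlib 3.10.9 were used.

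Members, gene lists and tests were chosen with earlier results of these data known. The rule for named genes was every member that passed in a comparison, with values by liver for up to 6 per measure with the smallest adjusted p, up to 2 members with the smallest unadjusted p where none passed, and list genes that passed; extremes of TE level and 5′ UTR share were named after their values were seen. Lists were cytosolic, mitochondrial and shared synthetases, 13 partners, 25 genes of ATF4 and its targets, and cell type markers. Gene lengths were not used, so levels were compared between genes as TE only. For 1 member, counted with the others, single values are not reported here and are not drawn.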

Additional observations from a re-analysis of the deposited data

How the results depend on the processing

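Of 739 fold changes of called members recomputed under alternatives, 599 kept direction and call, 140 kept direction but lost the call and 0 reversed. Unless a value shows it, the cause of a changed count was not tested. In RNA the 7 members over all livers became 4 with the first run alone, 13 with all count columns and 4 without the 2 livers with acinar RNA, while 22.3% of all genes became 17.7%, 31.5% and 20.6%; in Ireb2+/+ livers 0 became 2 with all count columns (2.29% of all genes became 4.35%). In RPFs the 11 members over all livers became 7 with the first run alone (31.8% became 25%). In Ireb2+/+ livers 2 became 1 with TMM, a minimum count of 30, no filter or without the 2 livers (7.53% became 7.26%, 9.09%, 6.47% and 5.78%), and 0 with DESeq2 or all 24 mice in 1 fit (6.31% and 6.05%). In Ireb2-/- livers 1 became 0 with DESeq2 or without the 2 livers (5.73% became 6.54% and 2.97%). In Aco1-/- livers 2 became 1 with TMM, no filter, the first run or all columns (12.1% became 12%, 9.99%, 7.1% and 11.5%), 3 with a minimum count of 30 (14.8%) and 5 with all mice in 1 fit (17.3%). In TE 1 member over all livers became 0 with the first run alone, without pairing by mouse or with limma (0.486% became 0.462%, 0.234% and 0.0748%), and 0 in Ireb2+/+ livers became 1 without the 2 livers (0.533% became 0.935%). Replicate numbers did not pair mice across groups: 72 correlations of deviations ran from −0.403 to 0.258 (median 0.00897), and in 2 of 24 group pairs every mouse correlated best with its own number. With a replicate block, RPF calls were 0 in Ireb2+/+ (6.59% of all genes) and 4 in Aco1-/- livers (13.6%). Leaving out each mouse gave, over all livers, 4 to 8 members in RNA (19.5% to 23.1% of all genes), 9 to 13 in RPFs (28.2% to 34.3%) and 0 to 1 in TE (0.271% to 1.2%). Between times it gave 1 to 2 in Aco1-/- (2.77% to 5.67%), 0 to 1 in Aco1+/+ (3.02% to 8.39%) and 0 to 1 in Ireb2-/- livers (1.2% to 4.58%) in RNA. In RPFs it gave 0 to 6 in Aco1-/- (4.96% to 15%, with 6 and 15% without replicate 3 at ZT5), 0 to 2 in Aco1+/+ (2.8% to 9.65%), 0 to 1 in Ireb2-/- (2.03% to 6.61%) and 0 to 3 in Ireb2+/+ livers (3.64% to 8.51%), and in TE 0 to 1 in Ireb2+/+ livers (0.28% to 0.991%). Between Aco1 genotypes at ZT12 it gave 0 to 1 in TE (1 without Aco1-/- replicate 3), and 17 to 18 cytosolic members were lower in RPFs for Ireb2 at ZT5. In that TE comparison 0.0935% of all genes passed with every liver. The share without that replicate is not given, so the count of 1 cannot be set against it. Depth may limit what can be seen in the members with the fewest counts, such as Pars2, Wars2 and Mars2, which was not tested.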
